A study of Mus musculus with 12 samples.

Results

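The proteasome subunit and assembly genes of the mouse were taken from a gene count table of embryo RNA-seq as every gene whose symbol consists of Psm, a letter from a to g, a number and at most 1 further letter. This rule, which uses no measured value, found 49 of 36255 genes in the table. By role they are 8 alpha subunits of the 20S core (Psma1 to Psma8), 7 constitutive beta subunits (Psmb1 to Psmb7), 4 immunoproteasome and thymoproteasome beta subunits (Psmb8 to Psmb11), 6 ATPases of the 19S base (Psmc1 to Psmc6), 3 non-ATPase subunits of the base (Psmd1, Psmd2 and Psmd4), 8 lid subunits (Psmd3, Psmd6, Psmd7, Psmd8, Psmd11, Psmd12, Psmd13 and Psmd14), 3 assembly factors of the 19S particle (Psmd5, Psmd9 and Psmd10), 4 of the 20S core (Psmg1 to Psmg4), and 6 activators or inhibitors (Psme1, Psme2, Psme2b, Psme3, Psme4 and Psmf1).

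The proteasome is the protease that degrades proteins tagged with ubiquitin. Its 20S core is a barrel with outer rings of alpha subunits and inner rings of beta subunits, of which Psmb5, Psmb6 and Psmb7 carry the cutting sites. The 19S particle caps the barrel: its lid and base bind and deubiquitinate the substrate, and its ATPases unfold the substrate and thread it into the core. In cells exposed to interferon, Psmb8, Psmb9 and Psmb10 take the places of the catalytic subunits, and dedicated chaperones assist the building of both particles.

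The series compares expression with and without Skp1a, an adaptor that links the parts of SCF ubiquitin ligases, by RNA-seq of 11 libraries. Ages are in days post coitum (dpc). Groups of n = 2 libraries are wt of 9.0 dpc, and wt, wt PI, Skp1acont and Skp1aKO of 9.5 dpc, and Skp1acont PI of 9.5 dpc has n = 1. The labels spell out neither "cont" nor "PI" nor the "mb" that every title carries, and they name no strain, allele, dose, agent or promoter. They give embryo as the source of every library, whereas the series text speaks of embryonic stem cells or embryoid bodies and the growth protocol names a medium for them, so it is unclear which tissue was sampled. Nothing in the labels states that replicate libraries stem from different embryos or cultures. P-values thus reflect the variation among libraries, and part of that may be technical.

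Total counts ran from 3392251 to 11607085 in the 6 wt libraries and from 2320599 to 4203553 in the 5 libraries with a Skp1a label. The mitochondrial share of counts was 2.44% to 4.01% in wt and 5.98% to 15.8% in the others. Genes of olfactory, vomeronasal and taste receptors, taken as a gauge of background after the data had been seen, had a median of 0.133 to 0.201 TMM-scaled CPM (counts relative to the library's scaled total) per kb of exon in wt and of 0.236 to 0.982 in the others. The highest of these was Skp1acont replicate 2, and the Skp1acont replicates correlated at r = 0.795 across genes on log2 CPM while the other pairs reached 0.966 or more. Skp1a itself was at 199 and 212 CPM in Skp1aKO, at 303 and 104 in Skp1acont, at 273 in Skp1acont PI and at 930 to 1340 in wt. Both Skp1aKO values fell inside the span of the Skp1acont pair, so the target gene does not set the libraries labelled Skp1aKO apart from those labelled Skp1acont.

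Proteasome transcripts were abundant in every wt library and took a smaller share of the counts in every library with a Skp1a label. The 49 genes together made up 0.948% to 1.47% of counts in wt and 0.335% to 0.926% in the others. As summed TMM-scaled CPM they stood at 16510 and 18390 in wt at 9.0 dpc, at 11810 and 14480 in wt at 9.5 dpc and at 17570 and 17740 in wt PI. They stood at 7395 and 2349 in Skp1acont, at 6431 in Skp1acont PI and at 3732 and 3729 in Skp1aKO. The wt libraries at 9.5 dpc were the lowest of the wt libraries, and no library with a Skp1a label reached the lowest wt library. In bulk RNA, fewer cells of a type and less RNA per cell cannot be told apart.

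**Figure D1:**
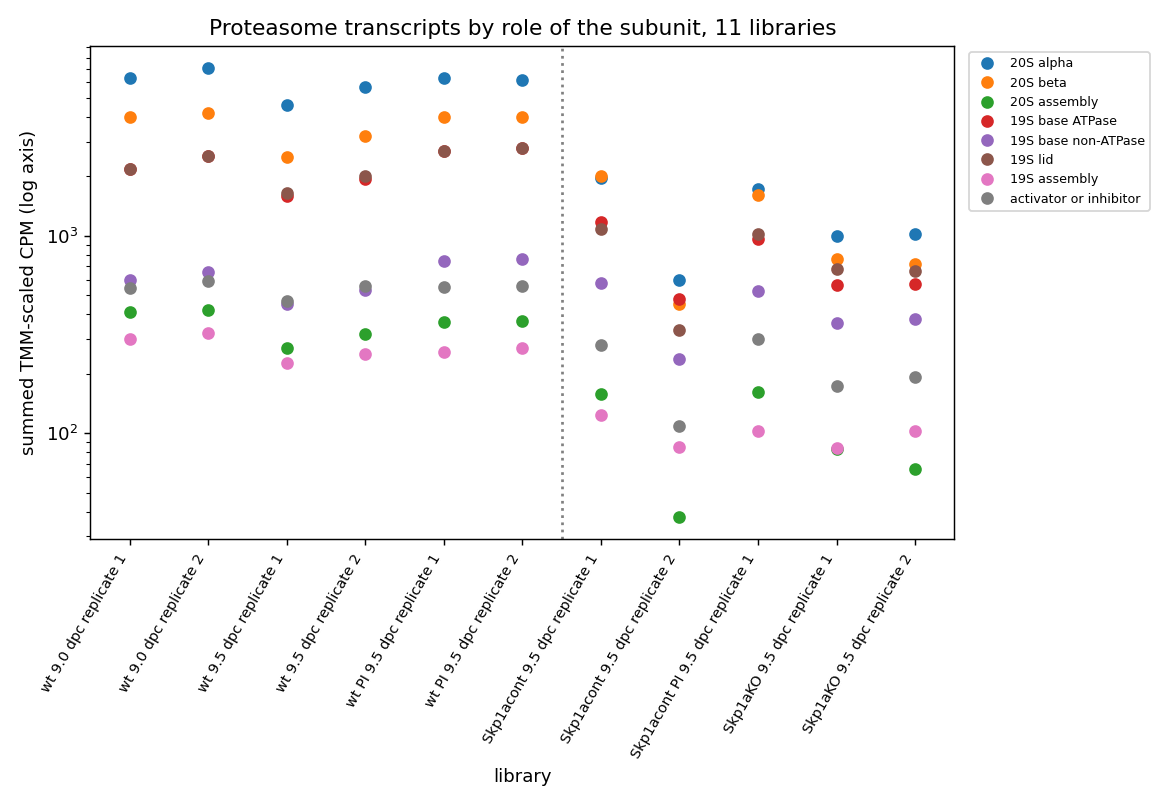
Summed TMM-scaled CPM (log axis) of the proteasome genes of each role, except the sparsely counted immunoproteasome and thymoproteasome group, in the 11 libraries; the dotted line parts the wt libraries from those with a Skp1a label, and each point is 1 library. Alpha subunits ran from 4610 to 7050 CPM in wt and from 596 to 1970 in the others, and lid subunits from 1640 to 2790 and from 332 to 1080.

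Per kb of exon, the 20S subunits led in wt at 9.5 dpc. Psma6 had a mean of 651 CPM per kb, Psma5 of 401 and Psmb2 of 360, while among the 19S subunits Psmc6 led with 201 and the lid deubiquitinase Psmd14 followed with 158. The lid subunits Psmd13 and Psmd3 were far lower at 8.69 and 6.38, and Psmf1, an inhibitor of the 20S core, had 3.72. Exon length here is the union over all annotated transcripts, which lowers the value of genes with long alternative exons. The spermatocyte alpha subunit Psma8, the thymus subunit Psmb11, the Psme2 copy Psme2b and the immunoproteasome subunits Psmb8 and Psmb9 were lowest, from 0.037 to 0.492 CPM per kb in wt at 9.5 dpc, and had 0 to 15 counts in any wt library.

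From 9.0 to 9.5 dpc in wt, proteasome genes fell. Of the 44 genes with enough counts to test among wt libraries, 26 fell and 0 rose (edgeR quasi-likelihood F test, two-sided, called at a Benjamini-Hochberg adjusted p under 0.05 over 13126 genes), where 16.7% of all genes tested were called lower and 15% higher, 31.7% in all. The median log2 fold change of the 44 was -0.43, and that of all genes tested was -0.02. In 35 of the 44 both libraries at 9.5 dpc lay below both at 9.0 dpc, which held for 35.5% of all genes tested, and in 0 both lay above, which held for 29.3%. Psmd5 was the only one of the 44 with a positive log2 fold change, of 0.05, and it was not called.

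The fall took in 6 of 7 constitutive beta subunits, 4 of 7 alpha subunits, 4 of 6 ATPases, 5 of 8 lid subunits, 3 of 4 chaperones of the 20S core and 2 of 3 of the 19S particle. It took in 1 of 3 non-ATPase base subunits and 0 of 5 activators or inhibitors. With the lot number of the library titles as a block, which called 41.7% of all genes, Psma3, Psmb4, Psmc4, Psmd2, Psmd12, Psmd14 and Psmf1 passed as well, for 33 members in all. Psmb10 (chr8:105935735-105938444, GRCm38), the immunoproteasome counterpart of Psmb7, was measured at 34.9 and 31.1 CPM at 9.0 dpc and at 13.2 and 12.4 CPM at 9.5 dpc, a log2 fold change of -1.33 ± 0.16 (SE; edgeR adjusted p = 0.0003). This was the largest fall among the members, and the groups lay far apart. Psmc5 (chr11:106256154-106263120), an ATPase of the base, went from 210 and 237 CPM to 108 and 141 (log2 fold change -0.81 ± 0.12, edgeR adjusted p = 0.000981). The core chaperones Psmg3 and Psmg1 fell by 0.84 and 0.76 on the log2 scale, and the ubiquitin receptor Psmd4 fell by 0.74.

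The catalytic subunits fell less than the genes just named, by amounts close to the median of -0.43 for the 44 members. Psmb5, the chymotrypsin-like subunit, went from 214 and 233 CPM to 146 and 180, with no overlap (log2 fold change -0.43 ± 0.11, edgeR adjusted p = 0.0137). Psmb6, the caspase-like subunit, fell by 0.45 and Psmb7, the trypsin-like subunit, fell by 0.50 on that scale. The alpha subunit Psma1 (-0.12), the ATPase Psmc6 (-0.14), the activators Psme1 (-0.15), Psme2 (-0.07), Psme3 (-0.18) and Psme4 (-0.09) did not pass the test. Psmd14 (-0.28) and Psmf1 (-0.41) did not pass either, but with the lot as a block they did, at edgeR adjusted p of 0.0144 and 0.0356. With 1 library left out in turn all member calls were lower, and their count was 12 without wt 9.0 dpc replicate 2 and 15 without wt 9.5 dpc replicate 1, where 20% and 19.8% of all genes were called. With library totals in place of TMM it was 15, all lower, while 64% of the calls over all genes were then higher against 47.2% with TMM.

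In wt PI at 9.5 dpc, proteasome genes were higher than in wt at 9.5 dpc. Of the 44 genes tested, 29 rose and 0 fell, where 15.6% of all genes tested were called higher and 12.4% lower, 28% in all (edgeR quasi-likelihood F test as above). The median log2 fold change was 0.48 for the 44 and 0.01 for all genes tested. In 36 both wt PI libraries lay above both wt libraries, which held for 34.8% of all genes tested, and in 2 they lay below, which held for 30.9%. This comparison and that of the ages share the wt libraries at 9.5 dpc, so the opposite signs of the 2 are not independent results.

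All 8 lid subunits, all 3 non-ATPase base subunits and 5 of 6 ATPases rose with PI in wt, with median log2 fold changes of 0.76, 0.63 and 0.75. Of the 20S core, 3 of 7 alpha subunits (median 0.27) and 4 of 7 constitutive beta subunits (median 0.47) rose. The difference in size between the 19S and 20S groups was not tested. Of the chaperones, 3 of 4 for the core and 1 of 3 for the 19S particle rose, and of 5 activators or inhibitors only Psmf1 did.

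The lid subunit Psmd13 (chr7:140881968-140898643) rose from 23.1 and 35.6 CPM in wt at 9.5 dpc to 73.4 and 87.4 in wt PI, a log2 fold change of 1.43 ± 0.21 (edgeR adjusted p = 0.00342). It was the largest rise among the members. Its exons share 342 bases with Sirt3 on the other strand, and the sources do not state whether counting used strand, so reads of the 2 genes may be mixed. The same doubt holds for Psmb7 with Nek6, Psme1 with Emc9, Psmc3 with Slc39a13, Psma4 with AY074887 and Psmd1 with Htr2b. Psmg3 with Gm26938 and Psmd1 with Gm21972 share exon bases on the same strand, where reads cannot be told apart by strand either. Psmc5 went from 108 and 141 CPM to 287 and 292 (1.21 ± 0.12, edgeR adjusted p = 0.00024). Psmc1 (chr12:100110154-100123405), another ATPase, went from 181 and 204 CPM to 381 and 415 (1.04 ± 0.11, edgeR adjusted p = 0.000293). In both ATPases the wt PI libraries also lay above the wt libraries at 9.0 dpc. Psmd4 rose by 0.97 ± 0.13 and Psmf1 by 0.82 ± 0.15 on the log2 scale, the latter from 22.4 and 25.6 CPM to 37.2 and 47.5.

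Among the catalytic subunits, Psmb7 rose from 275 and 371 CPM to 543 and 578 in wt PI (0.79 ± 0.13, edgeR adjusted p = 0.0021). Psmb5 had 200 and 205 CPM in wt PI, above both wt libraries, but its difference of 0.31 did not pass the test (edgeR adjusted p = 0.0587). Psmb6 (0.26) and Psmc6 (0.27) and the nuclear activator Psme3 (0.27) did not pass either. With the lot as a block these 4 passed, at edgeR adjusted p of 0.0112 for Psmb5, 0.0303 for Psmb6, 0.0223 for Psmc6 and 0.024 for Psme3. Psmb10 rose by 0.75 ± 0.16, from 13.2 and 12.4 CPM to 23.8 and 19.8, and stayed below both libraries at 9.0 dpc. Psmd14 rose by 0.41 ± 0.12, whereas Psma1 (0.21), Psme1 (0.12), Psme4 (0.06) and Psme2 (-0.06) did not pass. All member calls were higher with any 1 library left out, and they numbered 17 and 16 without wt PI replicate 1 and 2, where 11.8% and 10.4% of all genes were called. With library totals 28 members were called, all higher.

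**Figure D2:**
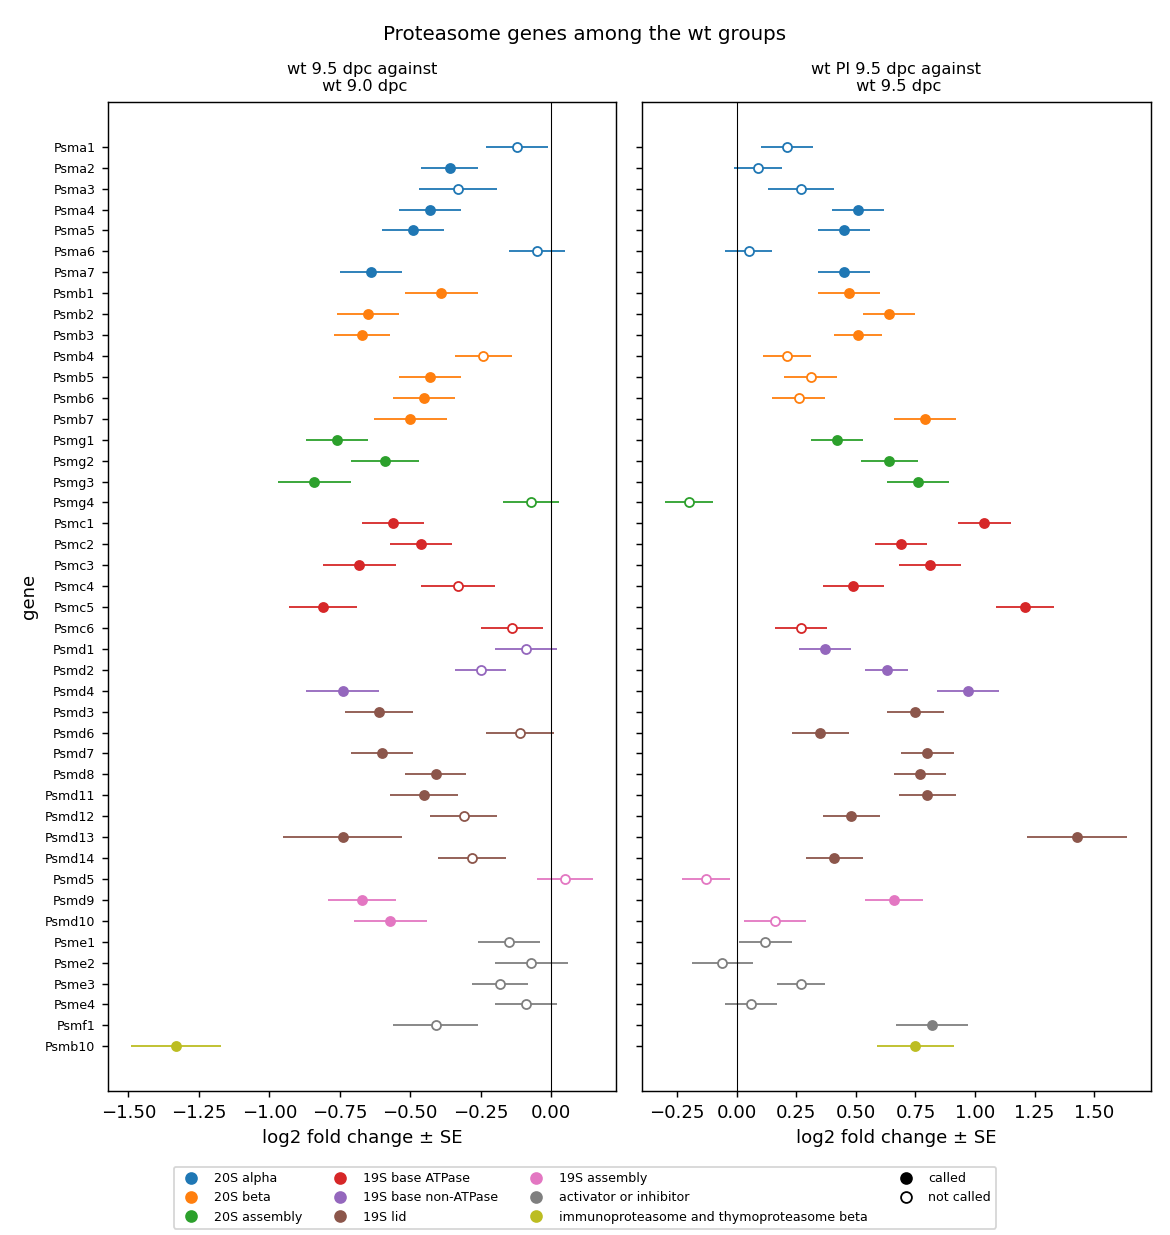
Log2 fold change ± SE of the 44 proteasome genes tested in wt, coloured by role, for wt at 9.5 dpc against wt at 9.0 dpc (left) and wt PI at 9.5 dpc against wt at 9.5 dpc (right; the scales of the 2 panels differ); filled points passed the edgeR test in the fit of the 6 wt libraries. On the left 26 points are filled, all below 0, and on the right 29, all above 0. On the right Psmd13 of the lid and Psmc5, Psmc1 and Psmd4 of the base lie farthest to the right. Other lid and base subunits lie among the remaining members, and the activators Psme1, Psme2 and Psme4 lie near 0.

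Between wt PI at 9.5 dpc and wt at 9.0 dpc the members differed little. The median log2 fold change was 0.08 for the 44 genes and 0.03 for all genes tested. Psmc1 (0.49 ± 0.11), Psmd2 (0.38 ± 0.09), the largest base subunit with Psmd1, and the lid subunit Psmd8 (0.36 ± 0.11) were higher, and Psmb10 (-0.59 ± 0.15) was lower, by the edgeR test. These 3 and 1 of 44 compare with 8.6% of all genes tested called higher and 6.99% called lower, 15.6% in all. Both wt PI libraries lay above both libraries at 9.0 dpc in 15 members and below in 12, which held for 30.9% and 29.8% of all genes tested. Psmb5 (-0.12), Psmb6 (-0.19), Psmb7 (0.29), Psma1 (0.09), Psmc6 (0.13), Psmd14 (0.13), Psme1 (-0.03), Psme2 (-0.13), Psme3 (0.09), Psme4 (-0.03) and Psmf1 (0.41) did not pass. With the lot as a block, which called 28.5% of all genes, 11 members were higher and 5 lower, among the former Psmd13 (0.69, edgeR adjusted p = 6.49e-05) and Psmf1 (0.47, edgeR adjusted p = 0.0089). Without wt 9.0 dpc replicate 1 or either wt PI library edgeR called 0 members, without wt 9.0 dpc replicate 2 it called 1, where 2.58% to 9% of all genes were called, and with library totals it called 8, all higher, while 78.4% of the calls over all genes were higher against 55.2% with TMM.

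These calls rest on the spread among the wt libraries alone. In a fit of all 11 libraries, whose biological coefficient of variation was 35.3% against 19.6% in wt alone, edgeR called 0 members in each of the 3 wt comparisons, with 3, 3 and 2 at an unadjusted p under 0.05, and it called 302, 13 and 2 of all genes. The wt groups also differed in the mitochondrial share of counts, at 2.44% and 2.5% at 9.0 dpc, 4.01% and 3.63% at 9.5 dpc and 2.75% and 2.83% in wt PI, and in markers of cell types. The part of these in the results was not tested. In all, 6 of 6 neuron markers were in the table, and they summed to 77.5 and 88.3 CPM at 9.0 dpc, 592 and 655 at 9.5 dpc and 231 and 235 in wt PI, with Nhlh2 at 0 in 1 library at 9.0 dpc. The 10 of 10 erythroid markers, none of them at 0, summed to 9310 to 9600, 17700 to 23600 and 9420 to 11900 CPM in the same order. Globin genes made up most of these sums. Klf1 went the other way, from 3.46 and 2.96 CPM at 9.0 dpc to 1.1 and 1.62 at 9.5 dpc, and Gata1 overlapped. The 5 of 5 surface ectoderm markers, of which Krt5 was at 0 in 6 of the 11 libraries, summed to 205 to 213, 24.6 to 32.9 and 39.9 to 51. Krt8 and Krt18 made up most of the sum at 9.0 dpc. Trp63 was at 2.08 and 4.74 CPM there and at 5.14 and 5.95 at 9.5 dpc. The 4 platelet markers summed to 0.692 and 0.711 CPM at 9.0 dpc, 85.2 and 105 at 9.5 dpc and 22.8 and 20.2 in wt PI, and the 10 macrophage markers to 5.19 and 7.59, 37.1 and 32.9, and 6.89 and 9.03. Pf4 made up most of the platelet sum at 9.5 dpc, at 78.2 and 97 CPM. The macrophage marker Lyz2 went the other way, from 1.38 and 1.66 CPM at 9.0 dpc to 0.367 and 1.08 at 9.5 dpc. The 5 trophoblast markers summed to 180 and 33.9 CPM at 9.5 dpc and to 3.45 to 5.69 in the other wt libraries. Prl8a2 alone stood at 177 and 31.9 CPM at 9.5 dpc, and the other markers of this list stood at 0 to 1.84 there.

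Genes that work with the proteasome but carry another symbol moved in both directions with PI in wt. Of 13 subunits and partners, 3 rose and 4 fell, with a median log2 fold change of 0.14. Over all genes tested, 15.6% were called higher and 12.4% lower. Adrm1, a ubiquitin receptor of the base, rose from 56.2 and 64.5 CPM to 96.9 and 103 (0.72 ± 0.10, edgeR adjusted p = 0.00107), and the deubiquitinase Usp14 rose by 0.71 ± 0.09. The lid subunit Sem1 fell by 0.77 ± 0.18, as did Midn (-1.36), Akirin2 (-0.61) and Zfand5 (-0.59), which bind proteasomes and act in substrate delivery, nuclear import and activation. The ligase Ube3c rose by 0.33.

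Of 9 regulators of proteasome genes, 0 rose and 2 fell with PI in wt, where 15.6% of all genes tested were called higher and 12.4% lower. The 2 were the stress factor Nfe2l2 (-0.59 ± 0.14) and Ngly1 (-1.12 ± 0.20), the enzyme that deglycosylates Nfe2l1. Nfe2l1, the factor known to raise proteasome gene transcription when proteasomes are inhibited, was at 16.5 and 20.8 CPM without PI and at 19.3 and 27.4 with it, which overlap, and was not called in any comparison. Of 14 ubiquitin and delivery genes, 3 rose, namely the segregase Vcp (0.43) and its cofactors Nploc4 (0.46) and Ufd1 (0.50), and 3 fell, among them the ubiquitin fusion gene Rps27a (-0.44) and the shuttle factor Ubqln2 (-0.73). From 9.0 to 9.5 dpc, 2 of the partners rose and 4 fell, 2 of the regulators rose and 1 fell, and 0 of the ubiquitin genes rose and 2 fell. Over all genes tested, 15% were called higher and 16.7% lower between the ages. The core maturation factor Pomp was among the partners that fell (-0.51 ± 0.11), and Adrm1 (-0.61), Usp14 (-0.58) and the deubiquitinase Uchl5 (-0.45) were the others. Zfand5 (0.79), Midn (0.72), Nfe2l2 (0.63) and Ngly1 (1.13) rose, and Hsf1 (-0.73) and Vcp (-0.36) fell. Between wt PI and wt at 9.0 dpc, Sem1 (-0.74), Akirin2 (-0.60), Rps27a (-0.60), Ubqln2 (-0.59) and Ubqln4 (-0.38) were lower and 0 of the 36 genes of these lists were higher. Of all genes tested, 6.99% were called lower and 8.6% higher there.

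**Figure D3:**
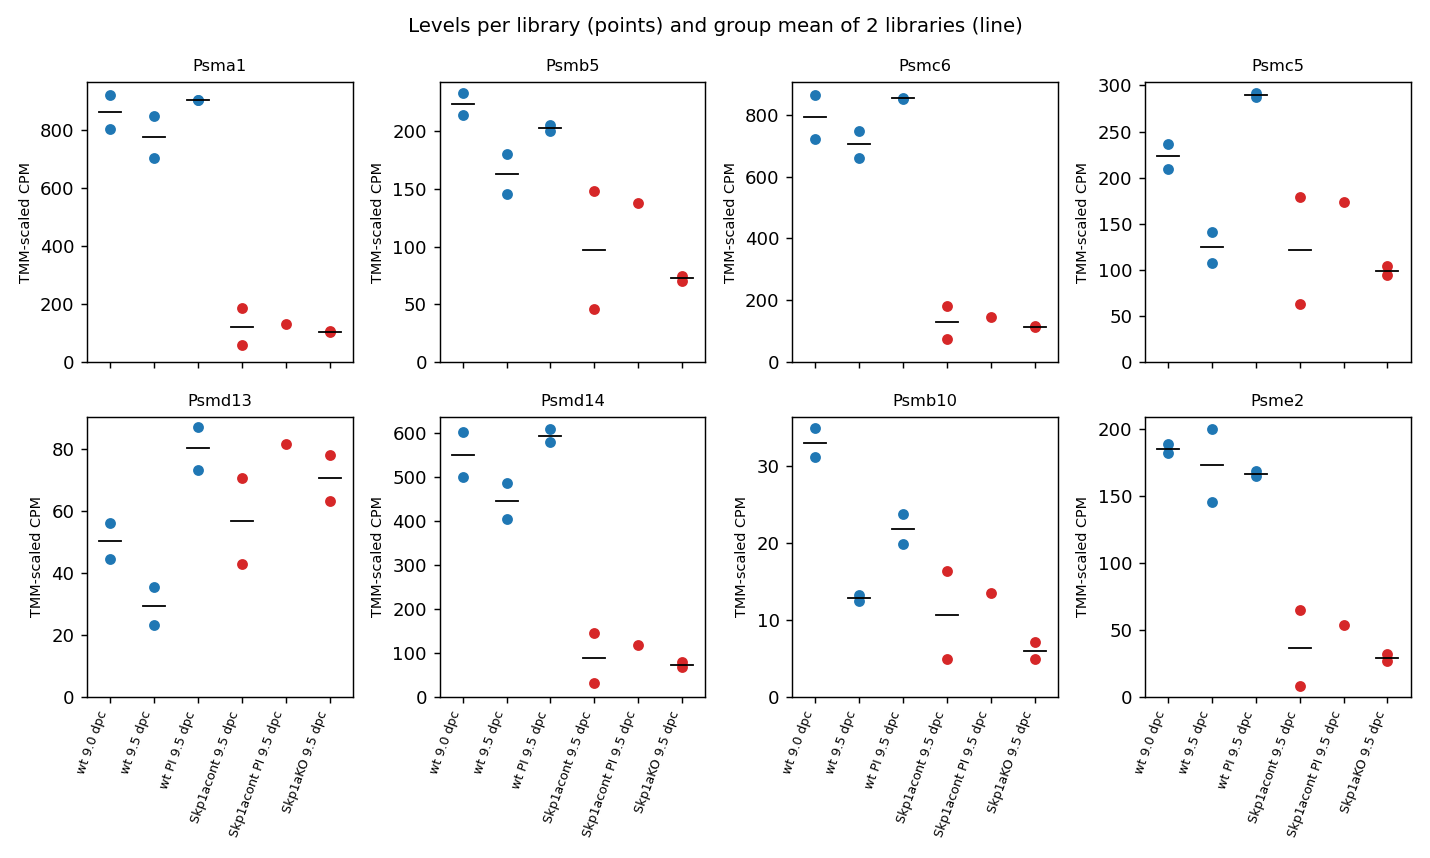
TMM-scaled CPM of 8 proteasome genes in each library (points) with the mean of each group of 2 libraries (line), wt groups in blue and Skp1a-labelled groups in red; each panel has its own axis from 0. Psmc5 and Psmd13 are highest in the wt PI libraries among the wt groups, Psmb10 is highest at 9.0 dpc, and Psma1, Psmc6, Psmd14 and Psme2 are lower in every Skp1a-labelled library than in any wt library.

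Because many members moved together, their promoters were searched for 3 motifs chosen after the data had been seen: TGACNNNGC, a core of antioxidant response elements, CCAAT, the NF-Y box, and CCGGAAG, an ETS core. Promoters came from RefSeq (GRCm38.p6) for 41 of the 49 genes, the 250 bases before the gene start were searched on both strands, and 2 pairs of matches to different motifs overlapped. CCGGAAG was in the promoters of 12 of 41 members (29.3%) and of 6.91% of all 32851 promoters. It was in 8 of the 22 with a promoter that rose with PI in wt and in 4 of the 15 that were not called. CCAAT was in 34.1% of members and 33.8% of all promoters, and TGACNNNGC in 12.2% and 10.2%. Members were counted by gene and all promoters singly, and the latter were not limited to genes tested here, so the shares are not matched. A match is a run of letters and not a shown binding site.

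The following windows, in the direction of the gene, show the match nearest the start, in capitals, for 4 members that rose with PI in wt and have CCGGAAG (or CTTCCGG, its reverse complement), and for the catalytic subunit Psmb6, which has TGACNNNGC. All lie outside the annotated genes of GENCODE M21. They are at chr11:80428574-80428614 on the plus strand for Psmd11, chr16:20651596-20651651 on the plus strand for Psmd2, chr3:95042703-95042769 on the minus strand for Psmd4, chr16:95990993-95991059 on the minus strand for Psmg1 and chr11:70525318-70525356 on the plus strand for Psmb6.
Psmd11: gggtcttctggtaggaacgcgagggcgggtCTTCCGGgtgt
Psmd2: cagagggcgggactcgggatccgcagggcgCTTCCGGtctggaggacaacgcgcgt
Psmd4: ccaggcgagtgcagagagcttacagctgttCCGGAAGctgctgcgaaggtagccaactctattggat
Psmg1: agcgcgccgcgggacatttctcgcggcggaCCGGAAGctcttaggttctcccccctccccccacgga
Psmb6: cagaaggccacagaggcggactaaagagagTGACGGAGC
The match began 11 bases before the start in Psmd11, 26 in Psmd2, 125 in Psmd4, 69 in Psmg1 and 9 in Psmb6. Psmd11, Psmd2, Psmd4 and Psmg1 rose with PI in wt by 0.80, 0.63, 0.97 and 0.42 on the log2 scale, and Psmb6 differed by 0.26 without passing the test.

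In Skp1aKO at 9.5 dpc, most proteasome genes were lower than in wt at 9.5 dpc. In the fit of all 11 libraries, 25 of the 44 genes were lower and 2 higher, where 18.7% of all 18837 genes tested were called lower and 17.6% higher, 36.4% in all. The median log2 fold change was -1.55 for the 44 and 0.24 for all genes tested. In 40 of the 44 both Skp1aKO libraries lay below both wt libraries, which held for 38.5% of all genes tested, and in 3 both lay above, which held for 46%. The other 5 members pass the filter only with the Skp1a-labelled libraries and are left to the end.

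The 20S core and its chaperones had the lowest medians: 7 of 7 alpha subunits among the 44 were lower (median -2.36), 4 of 7 constitutive beta subunits (-2.04) and 3 of 4 core chaperones (-2.08). Of the 19S particle, 3 of 6 ATPases (-1.30), 0 of 3 non-ATPase base subunits (-0.35), 3 of 8 lid subunits (-1.06) and 2 of 3 assembly factors (-1.26) were lower. Psma1 (chr7:114264606-114276118) fell from 705 and 849 CPM in wt at 9.5 dpc to 105 and 106 in Skp1aKO (log2 fold change -2.88 ± 0.55, edgeR adjusted p = 0.00752). Psmd10, the assembly chaperone also known as gankyrin, had 85.5 and 110 CPM and then 11.6 and 15.0 (-2.88 ± 0.45, edgeR adjusted p = 0.00437). Psmc6 fell from 661 and 747 CPM to 113 and 116 (-2.62 ± 0.49, edgeR adjusted p = 0.00702), and the alpha subunits Psma2 and Psma5 were lower by similar amounts (-2.66 and -2.65).

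Of the catalytic subunits, Psmb6 was lower (-2.04 ± 0.66, edgeR adjusted p = 0.0376), from 507 and 637 CPM in wt to 141 and 137. Psmb7 (-1.57) and Psmb5 (-1.17) did not pass, although all their Skp1aKO values lay below the wt values. The deubiquitinase Psmd14 (-2.61), the 11S activator subunits Psme1 (-2.38) and Psme2 (-2.58) and the large activator Psme4 (-1.27) were lower. Psme3 (-0.44), Psmf1 (-1.03) and Psmb10 (-1.10) did not pass.

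Against this direction, 2 lid subunits were higher in Skp1aKO. Psmd13 had 78.3 and 63.2 CPM against 23.1 and 35.6 in wt at 9.5 dpc (1.26 ± 0.36, edgeR adjusted p = 0.0262). Psmd3 had 77.9 and 69.8 CPM against 33.0 and 30.3 (1.22 ± 0.41, edgeR adjusted p = 0.0432). The Skp1aKO libraries lay above the wt libraries in both genes, and the overlap of Psmd13 with Sirt3 holds here too. Neither passed with no filter on low counts (edgeR adjusted p = 0.0884 and 0.116) or with any 1 library of these groups left out. Psmd2 (0.11) and Psmd9 (0.02) stayed near 0 and did not pass. With 1 library left out, edgeR called 8 of 49 members without wt 9.5 dpc replicate 1, 0 without replicate 2, 0 without Skp1aKO replicate 1 and 1 without replicate 2. In these fits 9.12%, 1.53%, 1.91% and 4.62% of all genes were called, and the median of the 49 was -1.43, -1.09, -1.38 and -1.39.

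Skp1acont at 9.5 dpc differed from wt in the same way in many members, and both comparisons share the wt libraries. Of the 44 genes 20 were lower and 0 higher, where 17.1% of all genes tested were called lower and 19.3% higher, 36.4% in all, with a median of -1.25 for the 44 and 0.34 for all genes tested. Both Skp1acont libraries lay below both wt libraries in 30 of the 44 and above in 2, which held for 31.5% and 38.7% of all genes tested. Psma1 was at 186 and 60.1 CPM in Skp1acont (-2.66 ± 0.54, edgeR adjusted p = 0.0106) and Psmc6 at 182 and 76.1 (-2.44 ± 0.48, edgeR adjusted p = 0.00994). Psma6 (-2.45), Psma2 (-2.37), Psmd14 (-2.35), Psme2 (-2.24), Psme1 (-1.91) and Psme4 (-1.30) were lower too. Psmb5 (-0.74), Psmb6 (-0.85), Psmb7 (-1.13), Psmb10 (-0.23), Psme3 (-0.55), Psmf1 (-0.48), Psmd13 (0.95) and Psmd3 (1.10) did not pass. EdgeR called 0 of 49 members without wt replicate 1 or 2, where it called 2.76% and 0.0709% of all genes, and 0 of 45 with only these groups in the fit, where it called 0%. Without Skp1acont replicate 1 the median was -1.99 for 49 members and 0.21 for all genes tested. Without Skp1acont replicate 2 it was -0.35 for 48 members and 0.19 for all genes tested. There 8 of the 39 members with a negative value turned positive, and 1 turned negative. The size of the difference from wt thus depends on which Skp1acont library is kept.

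Of the 13 partners 7 were lower and 0 higher in each comparison. Over all genes tested, 18.7% were called lower and 17.6% higher in Skp1aKO, and 17.1% and 19.3% in Skp1acont. Lower in both were Sem1 (-2.92 in Skp1aKO and -2.87 in Skp1acont), Usp14 (-1.77 and -1.52), Uchl5 (-1.86 and -1.86) and Txnl1 (-2.09 and -2.11). So were Ecpas (-0.85 and -1.07), which tethers the core to the 19S particle, and Zfand5 (-1.76 and -1.88). Pomp was called in Skp1aKO alone (-2.30), at 125 and 121 CPM against 532 and 682 in wt, and Akirin2 in Skp1acont alone (-1.66). Between Skp1aKO and Skp1acont themselves edgeR called 0 genes of these lists, as it called 0% of all genes tested. In these lists 2 genes had an unadjusted p under 0.05, both regulators. Of the 9 regulators, Nfe2l2 (-2.56 and -2.05), Ngly1 (-1.70 and -1.48) and Nfyb (-1.27 and -1.18) were lower in both, Nfya in Skp1aKO (-1.26), and the heat shock factor Hsf1 was higher (0.99 and 1.63). Of the 14 ubiquitin and delivery genes, 5 were lower in Skp1aKO, among them Rps27a (-2.22), Ufd1 (-1.63) and the autophagy receptor Sqstm1 (-1.15), and in Skp1acont Rps27a (-2.59) and Ubqln2 (-1.52) were lower. In each comparison 1 of the 14 was higher.

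**Figure D4:**
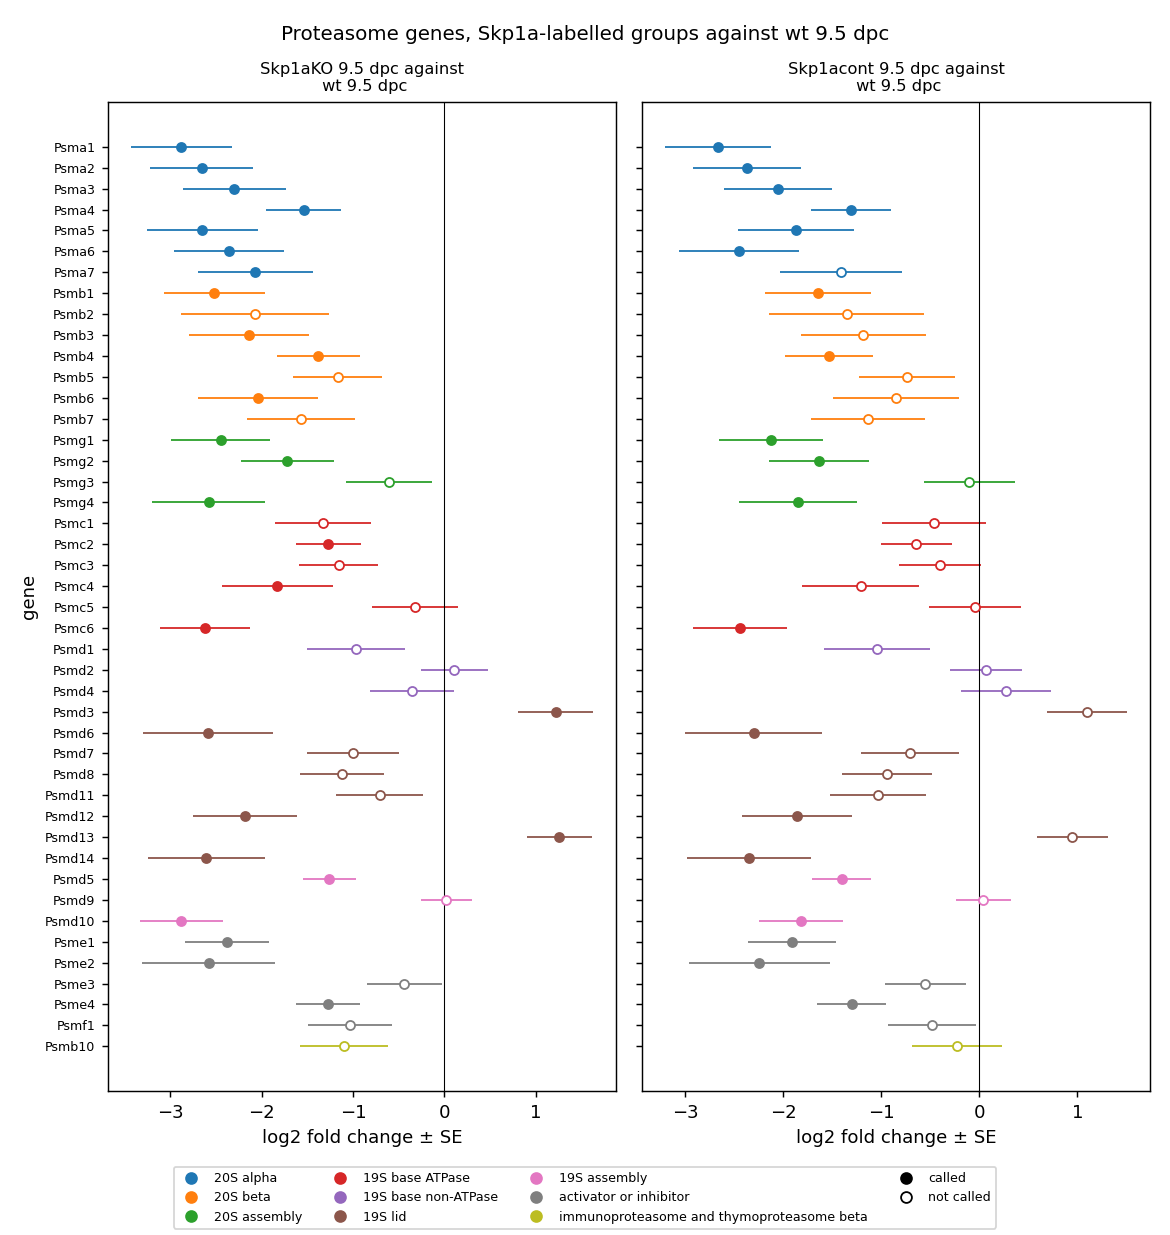
Log2 fold change ± SE against wt at 9.5 dpc of the same 44 genes in Skp1aKO (left) and Skp1acont (right), coloured by role, with filled points for those that passed the edgeR test in the fit of all libraries. On the left 25 filled points lie below 0 and only Psmd3 and Psmd13 are filled above it; on the right 20 filled points lie below 0 and none above, and both panels share the wt libraries.

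The wt and Skp1a-labelled libraries differ in scaling, background and cell markers as well as in label, and these cannot be told apart. With library totals in place of TMM the median over all genes moved from 0.24 to 1.04 for Skp1aKO against wt and from 0.34 to 1.08 for Skp1acont against wt, and of the 49 members 14 were then lower and 7 higher in the first and 9 lower and 7 higher in the second. Of the calls over all genes, 83% were then higher in the first against 48.5% with TMM. The signs of Psmc5, Psmd11, Psmd4, Psme3 and Psmg3 in the first turned with this scaling, and 0 of these genes were called under either. The erythroid markers, mostly globin genes by CPM, summed to 925 to 6430 CPM in the Skp1a-labelled libraries and to 9310 to 23600 in wt. Gata1 overlapped between these, at 0.604 to 2.74 CPM against 1.83 to 2.96. The part of these markers in the result was not tested. Across the 44 members the log2 fold change of Skp1aKO against wt had a Spearman rho of 0.44 with the GC content of the transcript. With the expression level, the mean CPM per kb in wt at 9.5 dpc, it was -0.69. Across all genes these were 0.19 and -0.66. They describe genes that share the libraries, and are 2 of 3 features looked at in each of 7 comparisons. The level comes from the same wt libraries that are the reference of the fold change, so a negative rho with it is partly built in.

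Between Skp1aKO and Skp1acont, edgeR called 0 of 49 members in either direction, as it called 0% of all 18837 genes. DESeq2 also called 0 members, and 1 member, Psmd10, had an unadjusted p under 0.05 in edgeR. The median log2 fold change was -0.31 for the 44 members and -0.11 for all genes tested. Psmb6 had the lowest value, at 533 and 99.6 CPM in Skp1acont and at 141 and 137 in Skp1aKO (-1.18 ± 0.64, edgeR adjusted p = 0.809). Psmd10 followed with 39.5 and 15.4 CPM and then 11.6 and 15.0 (-1.06 ± 0.44, edgeR adjusted p = 0.657). Both Skp1aKO libraries lay below both Skp1acont libraries in 4 of the 49 members, Psmd10 among them, and in 3 of the 44. This held for 12% of all genes tested. In 0 members both lay above, which held for 11.4%. The values of Psmb3 (-0.96), Psmb1 (-0.88), Psmc1 (-0.87), Psmb10 (-0.86), Psmf1 (-0.55), Psme1 (-0.48), Psmb7 (-0.44), Psmb5 (-0.42), Psme2 (-0.34), Psmd14 (-0.27), Psma1 (-0.22), Psmc6 (-0.17), Psme4 (0.03), Psme3 (0.10), Psmd13 (0.31) and Psmd11 (0.32) did not pass either.

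The Skp1acont libraries differed widely from each other. All of the 44 members had more CPM in replicate 1 than in replicate 2, and 37 had over 2 times more, such as Psmb2 with 311 against 29.6 and Psme2 with 65.0 against 7.85. Both Skp1aKO libraries lay between them in 39 of the 44. Without Skp1acont replicate 2, edgeR called 35 members lower and 1 higher in Skp1aKO, and without replicate 1 it called 30 higher and 1 lower, where 27.3% and 31.3% of all genes were called. Without Skp1acont replicate 1, Psma1 turned from -0.22 to 0.80, Psmd14 from -0.27 to 1.27 and Psme2 from -0.34 to 1.86. The lone Skp1acont library is then assumed to vary like the other groups, and the direction of a Skp1aKO difference depends on which library stands for the control.

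With PI in Skp1acont, the lone library lay within the range of the Skp1acont pair in 35 of 44 members and above it in the other 9. The 44 genes had a median log2 fold change of 0.50, against -0.12 for all genes tested, and edgeR called 0 of 49 members and 0% of all genes, with 0 members at an unadjusted p under 0.05 and 0 called by DESeq2. Over all genes tested, 21.2% lay above both Skp1acont libraries and 25% below. Psme1, an 11S activator subunit, had 35.4 CPM against 25.5 and 7.85 (1.06 ± 0.52, edgeR adjusted p = 0.80), and the core chaperone Psmg2 and lid subunit Psmd6 differed by 0.93 and 0.90. Psmb7 (0.68), Psme3 (0.66), Psmb5 (0.50), Psmc6 (0.18), Psmb6 (0.18), Psmd14 (0.43), Psme2 (0.54), Psme4 (0.57), Psmf1 (0.31), Psmb10 (0.31), Psma1 (0.09) and Psmd10 (-0.40) did not pass either. Without Skp1acont replicate 1 the median was 1.46 for 49 members and -0.10 for all genes tested. Without Skp1acont replicate 2 it was -0.15 for 48 members and -0.02 for all genes tested. There 33 members turned negative and 1 turned positive. The direction of the PI difference in Skp1acont thus depends on which Skp1acont library is kept.

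The difference of the PI effect between Skp1acont and wt, tested as an interaction after the data had been seen, called 0 of 49 members and 0% of all genes, with 1 member at an unadjusted p under 0.05. The members' median was -0.12 and that of all genes tested was -0.15. Without Skp1acont replicate 2, in a fit of 17019 genes of which 2.66% were called, 2 of 48 members passed and the median was -0.71 for the members and -0.06 for all genes tested. These were the ATPases Psmc1 (-1.57 ± 0.31, edgeR adjusted p = 0.00839) and Psmc5 (-1.25 ± 0.32, edgeR adjusted p = 0.0362), for which the PI effect was lower in Skp1acont than in wt. Psmc1 had 218 CPM in Skp1acont replicate 1 and 152 in Skp1acont PI, and Psmc5 had 179 and 174, whereas both genes rose with PI in wt. These results have 1 library on each side in Skp1acont.

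The members with few counts were the immunoproteasome subunits Psmb8 and Psmb9, the thymus subunit Psmb11, Psma8 and Psme2b. Psmb8 had 0 or 1 count in every wt library, 4 and 8 in Skp1acont, 2 in Skp1acont PI and 9 and 11 in Skp1aKO. Psmb9 had 0 to 3 counts in wt, 8 and 15 in Skp1acont, 2 in Skp1acont PI and 15 and 5 in Skp1aKO, and its exons overlap Tap1. Psmb11 had 1 to 15 counts in wt, 18 and 38 in Skp1acont, 32 in Skp1acont PI and 37 and 38 in Skp1aKO. These 3 genes were called higher in Skp1aKO than in wt at 9.5 dpc, and Psmb9, Psmb11 and Psme2b in Skp1acont than in wt, but all of them passed the filter only through the libraries in which they are high.

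These levels can be set beside the background gauge. In Skp1aKO, Psmb8 had 0.57 and 0.718 CPM per kb of exon beside medians of 0.516 and 0.585 for the chemosensory receptor genes, and in Skp1acont it had 0.225 and 0.714 beside 0.236 and 0.982. Psmb9 had 0.877 and 0.302 in Skp1aKO, and Psma8 had 0.687 and 0.885. In Skp1aKO, Psma8 and Psmb8 lay a little above the gauge, and Psmb11 (1.65 and 1.75) and Psme2b (1.28 and 1.58) lay further above it. In Skp1acont, Psmb11 had 0.714 and 2.39 and Psme2b had 2.04 and 2.52, also above it. The gauge is a median, so many receptor genes exceed it too. In wt at 9.5 dpc Psmb11 was at 0.306 and 0.254 beside 0.135 and 0.146. Psme2b, which resembles Psme2 and may share reads with it, had 0 to 14 counts in wt, 9 and 7 in Skp1acont, 2 in Skp1acont PI and 5 and 6 in Skp1aKO. Macrophage markers, which mark a cell type rich in immunoproteasomes, summed over 10 genes to 12.3 to 40.5 CPM in the Skp1a-labelled libraries and 5.19 to 37.1 in wt, but they did not move together. Tyrobp was at 7.34 and 5.68 CPM in wt at 9.5 dpc and at 0 to 0.95 in the Skp1a-labelled libraries, whereas Ptprc, which other blood cells also express, was at 3.67 and 5.28 and at 4.30 to 18.4. Tyrobp, Csf1r, C1qa, C1qb, C1qc and Aif1 were at 0 in at least 1 wt library, and Tyrobp, C1qa and C1qb in at least 1 Skp1a-labelled library. Their part in these levels was not tested.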

How the data were processed

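The authors deposited raw counts of reads for each gene symbol in a single table. The submitters' processing notes name Trim Galore 0.6.7 and GRCm38. The aligner, counting tool and strand setting were not given in the sources used here. Of 12 labelled libraries, 11 were analysed, and lot 2 of Skp1acont PI was not analysed here. Groups come from the library titles, and the lot gives the replicate number.

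The test was that of edgeR 4.0.16 under R 4.3.3 (TMM scaling, filterByExpr by group, robust quasi-likelihood F test, two-sided, Benjamini-Hochberg over all genes tested, called at an adjusted p under 0.05). The wt comparisons were fitted on the 6 wt libraries (13126 genes) and the others on all 11 (18837 genes). The SE of a log2 fold change was derived from the test, as its absolute value divided by the square root of the F statistic. CPM values are TMM-scaled in the fit of all libraries. A group of 1 library is assumed to vary like the others. The counting floor of 3 counts came to 0.258 to 1.29 CPM per library and covers counting error only.

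The members, the gene lists, the separate wt fit and the rule for named genes were chosen with earlier results of these data known. Named genes are the catalytic and immunoproteasome subunits, Psma1, Psmc6, Psmd14, Psme1 to Psme4 and Psmf1, and in each comparison the 5 highest and 5 lowest among those called, or among those tested where 0 were called. Of other genes of the pathway, those called are named, except some that are not reported here. Members named for level, role or promoter beyond this rule, the interaction test, the background gauge, the motifs, the feature correlations and the restriction to 44 members were chosen after their values were seen. Alternatives were DESeq2 1.42.0 size factors and Wald test, library totals, other filters, the lot as a block, other sets of groups and leaving out each library.

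Whether lots pair libraries was judged by correlation, not by calls. Deviations from group means correlated across genes between wt libraries of the same lot at r of 0.343, 0.305 and 0.297, so lots may pair these libraries, which rests on the values and is stated in no label. The main fits had no term for the lot, which entered only as an alternative. Among wt libraries, lot 1 had 3392251 to 4007663 counts and lot 2 had 9217568 to 11607085, so lot and depth cannot be told apart. Exon lengths and positions came from GENCODE M21.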

Additional observations from a re-analysis of the deposited data

Results flagged for a closer look

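The PI effect pointed in opposite directions in Skp1acont and wt for 3 members, with every PI library on 1 side of its controls in one and on the other side in the other. The log2 difference, Skp1acont minus wt, was -3.43 for Psma8, -3.59 for Psmb9 and 0.26 for Psmd5. As an interaction in edgeR they had adjusted p of 0.77, 0.771 and 0.935, and the opposite directions themselves were not tested. Psma8 and Psmb9 had 1 and 2 counts in the Skp1acont PI library, so their fitted values depend on the small count added in fitting and are no bound.

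The ATPases Psmc1 and Psmc5 differed in the PI effect by -1.57 and -1.25 when Skp1acont replicate 2 was left out. With both Skp1acont libraries the differences were -0.93 and -0.70, with edgeR adjusted p of 0.837 and 0.863.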

How the results depend on the processing

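Leaving out 1 library in turn gave from 12 to 29 member calls for the wt ages (26 with all), 16 to 30 for wt PI against wt at 9.5 dpc (29), 0 to 1 for wt PI against wt at 9.0 dpc (4), 0 to 36 for Skp1aKO against Skp1acont (0), 0 to 8 for Skp1aKO against wt (30 of 49), 0 to 45 for Skp1acont against wt (23 of 49) and 0 to 42 for Skp1acont PI against Skp1acont (0). Without Skp1acont replicate 2 in the fit, Skp1aKO against wt had 42. The share of all genes called ran from 19.3% to 27.2%, 10.4% to 25.6%, 2.58% to 9%, 0% to 31.3%, 1.53% to 9.12%, 0.0709% to 74% and 0.0823% to 50.6% in the same order, and was 67.9% for the 42. Fitting all 6 groups gave 0 calls in each wt comparison, and fitting only the groups compared gave 0 for Skp1acont against wt. Library totals in place of TMM gave 15 for the ages and 8 for wt PI against 9.0 dpc, which had 2 with DESeq2, 7 with no filter and 16 with the lot as a replicate block. With library totals 6 members changed sign between the ages and 11 between wt PI and 9.0 dpc, 0 of them called. The block gave 33 calls for the ages and 34 for wt PI against wt at 9.5 dpc, where 41.7% and 38.9% of all genes were called, and it left the counts of member calls in comparisons with a Skp1a label as they were, where same-lot deviations correlated at -0.0107 to 0.18. Without Skp1acont replicate 1, Skp1aKO against Skp1acont turned positive for Psma1 (0.80, and -0.80 without replicate 2), Psmb3 (0.71 and -1.70), Psmb5 (0.63 and -1.01), Psmb6 (0.46 and -1.92), Psmb7 (0.93 and -1.11), Psmc6 (0.57 and -0.65), Psmd14 (1.27 and -0.98) and Psme2 (1.86 and -1.15), which are 8 of the 31 of 36 members with a negative value that turned positive there, 23 of them called. Depth limits Psmb8, Psmb9, Psma8 and Psme2b, which had at most 15 counts in any library. The cause of these shifts was not tested.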
